A study of Mus musculus with 4 samples.

Results

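The Atf4 amino acid stress response genes described here were 35 named mouse genes, taken by symbol from the gene names of the arrays. They comprised 10 regulators, 7 enzymes of amino acid and folate metabolism, 6 amino acid transporters, 10 tRNA synthetases and 2 secreted or surface proteins. All 35 were on the arrays, through 61 probes, and all 35 were among the 17847 genes and unnamed transcripts tested. On all 4 arrays each of the 35 reported probes was well above background for both dyes. The probe for Atf4 lay at chr15:80087079-80087138 (mm9), the one for Asns at chr6:7625194-7625253, the one for Slc7a11 at chr3:50169700-50169759 and the one for Ddit4 at chr10:59412486-59412545. No exon annotation of that build was used here.

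The cells were C2C12, an established line of mouse myoblasts that fuse into myotubes when serum is lowered. Follistatin cultures differentiated for 6 days with recombinant human follistatin added every 24 h at 200 ng/ml, and untreated cultures differentiated for 6 days without it. Both were taken from growth medium at 80% confluence into horse serum, given as 2% in the protocol and as 10% in the source names. Each of 4 replicates, called biological by the labels, was 1 two-colour array. Follistatin RNA was always labelled with Cy3 and untreated RNA with Cy5, so that a dye effect of a gene adds to its ratio on every array. Nothing says that the replicates came from separate cultures, so p-values measure the spread between these arrays, which may be technical.

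Replicate 4 was on slide 2, read with a later version of the scanner software, and replicates 1, 2 and 3 were on slide 1. Slide, software version and any difference between the cultures cannot be told apart. Over all genes tested, as a description, r between log2 ratios was 0.81 for replicates 2 and 3 and 0.079 to 0.27 for the other 5 pairs of arrays. No ratio was identical on 2 arrays, but replicates 2 and 3 were not shown to be independent. On each array 60.8% to 64.8% of the probes were well above background for follistatin RNA, and 61.0% to 69.1% for untreated RNA. All 7 muscle markers, among them Myod1, Des and Ckm, were above background, as were 8 of 16 markers of other lineages. By lineage these were 3 of 4 epithelial, 3 of 3 neural and glial, 2 of 4 blood, 0 of 3 endothelial and 0 of 2 adipocyte markers. The ratios of the 7 muscle markers ran from -0.87 to -0.021 on replicate 4, against -0.12 to 1.75 on replicate 1 and -1.21 to 0.42 on replicates 2 and 3. The part of these markers in the results that follow was not tested.

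Atf4 is a basic leucine zipper activator whose translation goes up when kinases such as Gcn2 and Perk phosphorylate eIF2alpha. Gcn2 responds to amino acid shortage and Perk to stress in the endoplasmic reticulum. With C/EBP partners it binds short composite elements in the promoters of genes that import amino acids, make them and load them onto tRNAs, and of regulators that feed back on translation. In muscle cells, protein synthesis during differentiation draws on the same supply of amino acids.

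The C/EBP-Atf response element, searched as TGATGNAA on both strands, is the sequence through which Atf4 is known to act. RefSeq promoter windows of GRCm38.p6, from 250 bases before to 50 after the start of a transcript, were found for 29 of the 35 genes. The element was in 12 of the 29 (41.4%), against 1219 of 27025 genes (4.51%) with such a window. These were Atf3, Trib3, Asns, Chac1, Slc7a11, Slc1a4, Aars, Gars, Tars, Iars, Vldlr and Nupr1, with 2 matches each in Slc7a11 and Aars. A match describes letters and does not show a binding site. The stretches below were picked by hand from the 12 genes with the element, whose ratios are given further on. Chac1 and Nupr1, whose ratios were higher on replicate 4 than on each of the other arrays, are among them. Each stretch is 5′ to 3′ in the direction of the gene, from RefSeq, with the element on either strand in capitals. The window of Asns is shown to 29 bases after the start and the others with up to 25 bases on each side.
Asns (chr6:7693180-7693459, minus strand): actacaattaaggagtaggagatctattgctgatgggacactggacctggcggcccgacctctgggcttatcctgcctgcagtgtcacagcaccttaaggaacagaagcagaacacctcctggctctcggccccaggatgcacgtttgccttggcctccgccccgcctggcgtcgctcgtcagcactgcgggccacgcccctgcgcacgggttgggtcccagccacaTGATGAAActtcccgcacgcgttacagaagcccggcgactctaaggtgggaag
Slc7a11 (chr3:50443628-50443704, minus strand): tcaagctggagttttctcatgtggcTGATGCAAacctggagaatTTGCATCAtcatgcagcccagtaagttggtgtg
Atf3 (chr1:191183411-191183468, minus strand): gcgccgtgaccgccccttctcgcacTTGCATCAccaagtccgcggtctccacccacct
Slc1a4 (chr11:20332685-20332742, minus strand): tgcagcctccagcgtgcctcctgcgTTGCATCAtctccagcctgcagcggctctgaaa
Aars (chr8:111033705-111033762, plus strand): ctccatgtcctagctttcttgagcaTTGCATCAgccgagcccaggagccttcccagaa
Tars (chr15:11399641-11399698, minus strand): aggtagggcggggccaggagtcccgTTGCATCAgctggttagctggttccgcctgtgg
Iars (chr13:49682112-49682159, plus strand): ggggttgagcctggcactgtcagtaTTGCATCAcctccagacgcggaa
Chac1 (chr2:119351024-119351081, plus strand): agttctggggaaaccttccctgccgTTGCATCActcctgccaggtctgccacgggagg
Nupr1 (chr7:126625548-126625605, minus strand): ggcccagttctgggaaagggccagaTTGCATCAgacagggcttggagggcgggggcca
In Slc7a11 the 2 matches lay 66 and 47 bases before the start, in opposite orientation. In 8 of these 9 promoters, which were picked by hand, a match read TTGCATCA along the gene, while that of Asns read TGATGAAA. Of the genes with the element that are not shown, Vldlr read TTGCATCA, Trib3 TTACATCA and Gars TTTCATCA. The endoplasmic reticulum stress element, searched on both strands as CCAAT, any 9 bases and CCACG, was in 0 of the 29 windows and in 37 of 27025 genes (0.137%).

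The comparison of follistatin with untreated cells asked whether these genes shifted with treatment. By limma over all 4 arrays 0 of the 35 passed an adjusted p of 0.05, against 2 of 17847 genes tested (0.0112%), both of them lower. At an unadjusted p under 0.05, 1 of the 35 was higher (9.18% of all genes tested) and 1 was lower (11.4%). The higher one was Ddit3, which encodes the pro-apoptotic factor CHOP, with a mean log2 ratio of 0.51 (SE 0.21, adjusted p = 0.233). Without replicate 1 the mean of Ddit3 was 0.31. The lower one was Chac1, an enzyme that breaks down glutathione, at -0.51 (SE 0.19, adjusted p = 0.206). The median over the 35 was 0.063, against -0.018 over all genes tested. In bulk RNA such as this, fewer cells of a type and less RNA per cell cannot be told apart.

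The means hid a split between the slides. The median log2 ratio of the 35 genes was -0.60 on replicate 4, against 0.23, 0.30 and 0.50 on replicates 1, 2 and 3. The median over all genes tested stayed between -0.060 and 0.0053 on the 4 arrays. On replicate 4 the ratio was below 0 for 31 of the 35 (49.5% of all genes tested) and above 0 for 4 (50.5%), Ddit3, Ddit4, Nupr1 and Slc7a3. On replicate 1 it was above 0 for 24 (45.4%) and below 0 for 11 (54.6%). On replicate 2 it was above 0 for 27 (48.5%) and below 0 for 8 (51.5%), and on replicate 3 above 0 for 28 (49.1%) and below 0 for 7 (50.9%). More than 1.6-fold lower in follistatin cells, the minimum fold of the study's methods, were 14 on replicate 4 (9.21%) and more than 1.6-fold higher were 0 (9.22%). More than 1.6-fold higher were 9 on replicate 1 (11.5%), 5 on replicate 2 (11.1%) and 12 on replicate 3 (14.6%), while 2 (13.0%), 1 (14.0%) and 2 (17.9%) were more than 1.6-fold lower.

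**Figure D1:**
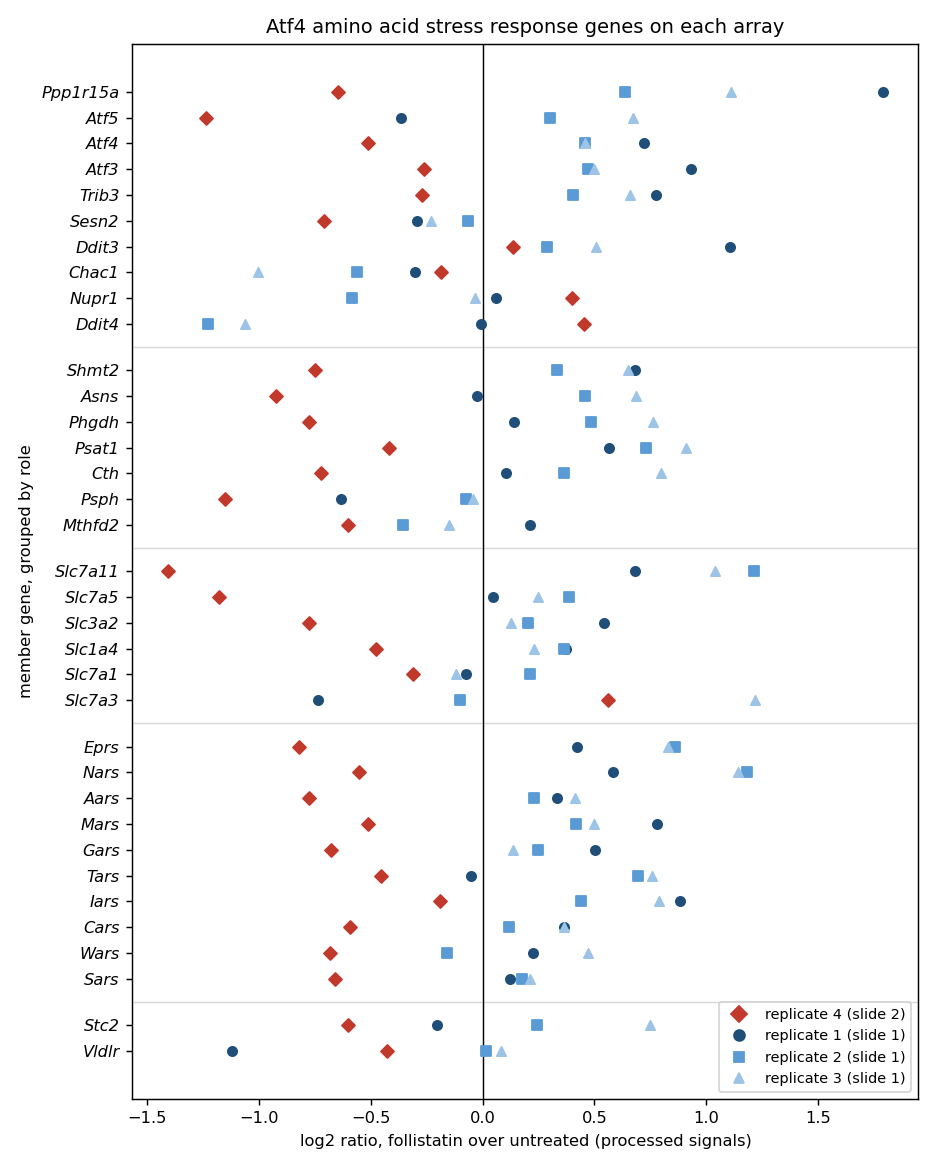
Log2 ratio of follistatin over untreated cells (horizontal axis) for each of the 35 genes (vertical axis, grouped by role), with 1 symbol per array. The red diamonds of replicate 4 lie below 0 for 31 of the 35 genes, and the blue symbols of replicates 1, 2 and 3 are above 0 for 24, 27 and 28.

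The difference between slides was taken as the log2 ratio on replicate 4 minus the mean log2 ratio on replicates 1 to 3. It was negative for 31 of the 35 and for 8236 of all 17847 genes tested. The median was -0.90 over the 35, against 0.054 over all genes tested. Among the 35 it ran from -2.39 for Slc7a11 to 1.22 for Ddit4. By limma 0 of the 35, and 0 of all 17847 genes (0%), passed an adjusted p of 0.05, with 0.461 the smallest adjusted p. This fit has 1 array on slide 2 and takes it to vary like those of slide 1. In simulated data of the same design it called none of the changes put in, so the count of 0 and the adjusted p beside each difference between slides do not show whether single genes differed. At an unadjusted p under 0.05, 18 of the 35 were lower on replicate 4 (4.41% of all genes tested) and 0 were higher (5.40%). Replicate 4 lay below each of replicates 1 to 3 for 30 of the 35 (25.9%) and above each of them for 3 (32.0%), Chac1, Ddit4 and Nupr1. For 20 of the 35 the ratio was above 0 on all of replicates 1 to 3 and below 0 on replicate 4 (9.58%). The opposite pattern was seen for 1, Ddit4 (11.1%). At the reported probes, of 1 sign on all 4 arrays were Ddit3, above 0 (13.2%), and Chac1, Psph and Sesn2, below 0 (16.0%). The other probes of Psph and Sesn2 were not of 1 sign. The difference was negative for 31 of the 35 also with loess-normalized or median-centred ratios, and for 28 with the mean over the probes of a gene.

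**Figure D2:**
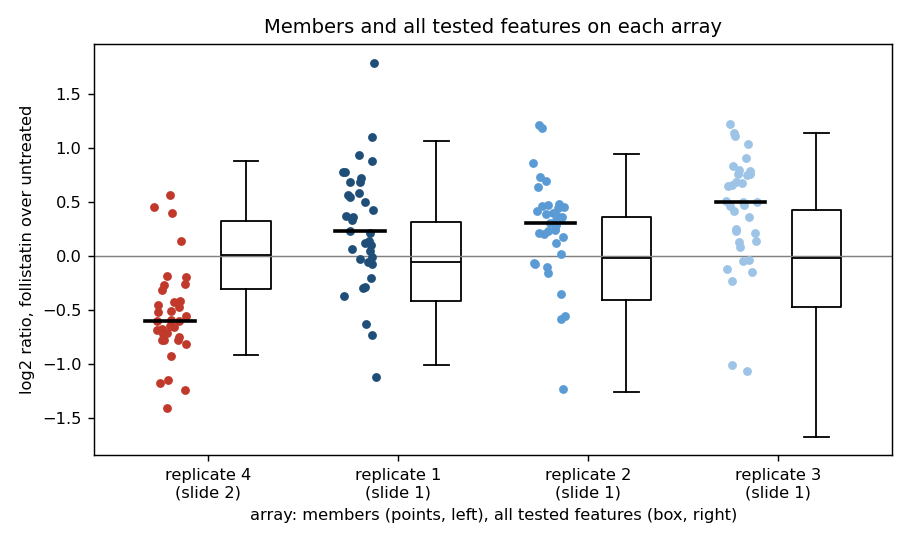
Log2 ratio of follistatin over untreated cells (vertical axis) on each array, with the 35 genes as points and their median as a black bar, and beside them all 17847 genes tested as a box of quartiles and median with whiskers to the 5th and 95th percentiles. The points of replicate 4 centre on -0.60 and those of replicates 1, 2 and 3 on 0.23, 0.30 and 0.50, while all 4 boxes centre near 0.

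Among the regulators, Atf4 itself had a log2 ratio of -0.51 on replicate 4, against 0.72, 0.46 and 0.46 on replicates 1 to 3. Its processed signals, which are brightness values not scaled between arrays, were 19154, 18896, 17983 and 10812 in the follistatin channel of replicates 1 to 4, against 11619, 13779, 13082 and 15445 in the untreated channel. The follistatin channel was thus the brighter on replicates 1 to 3 and the dimmer on replicate 4, and the difference between slides was -1.06 (SE 0.34, adjusted p = 0.471). Ppp1r15a encodes GADD34, the subunit that directs a phosphatase to eIF2alpha. Its ratio was -0.65 on replicate 4, against 1.79, 0.63 and 1.11 on replicates 1 to 3, with a difference between slides of -1.82 (SE 0.53, adjusted p = 0.471), the lowest of the regulators. Without replicate 1 it was -1.52, against -1.73 for Atf5, which was then lower. Atf5, a related leucine zipper factor, stood at -1.24 on replicate 4, against -0.37, 0.30 and 0.67 on replicates 1 to 3, so that replicates 1 and 4 were both below 0. Atf3, a stress-induced factor of the same family with the element in its promoter shown above, stood at -0.26 on replicate 4, against 0.93, 0.47 and 0.50 on replicates 1 to 3. Trib3, a pseudokinase that binds Atf4, stood at -0.27 on replicate 4, against 0.77, 0.40 and 0.66 on replicates 1 to 3. In both genes the 3 arrays of slide 1 were above 0 and replicate 4 was below it, with differences of -0.90 (SE 0.37, adjusted p = 0.52) for Atf3 and -0.88 (SE 0.35, adjusted p = 0.511) for Trib3.

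The other 5 regulators, like Atf5, were not both above 0 on all of replicates 1 to 3 and below 0 on replicate 4. Ddit3 stood at 0.13 on replicate 4, against 1.10, 0.29 and 0.51 on replicates 1 to 3, above 0 throughout and lowest on replicate 4. Sesn2, an inhibitor of mTORC1 that senses leucine, stood at -0.71 on replicate 4, against -0.29, -0.064 and -0.23 on replicates 1 to 3, below 0 throughout at the reported probe. The other probe of Sesn2 stood at 0.31 on replicate 4, against 0.30, -0.97 and -0.92 on replicates 1 to 3. Chac1 stood at -0.19 on replicate 4, against -0.30, -0.56 and -1.01 on replicates 1 to 3, below 0 on every array and nearest to it on replicate 4. Nupr1, a small stress-induced nuclear protein, had 0.40 on replicate 4, against 0.06, -0.58 and -0.036 on replicates 1 to 3. Ddit4 encodes REDD1, another inhibitor of mTORC1, and stood at 0.45 on replicate 4, against -0.0076, -1.23 and -1.06 on replicates 1 to 3. Its signals were 22296, 13434, 14269 and 27387 in the follistatin channel of replicates 1 to 4, against 22413, 31464, 29823 and 20032 in the untreated channel. Ddit4 was thus the brighter in follistatin cells on replicate 4, nearly level on replicate 1 and the dimmer on replicates 2 and 3, with a difference between slides of 1.22 (SE 0.58, adjusted p = 0.541). Of the 10 regulators 7 had a negative difference, 3 of them at an unadjusted p under 0.05 (4.41% of all genes tested), with a median of -0.70.

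All 7 enzymes had a ratio below 0 on replicate 4, and all 7 differences between slides were negative, 5 of them at an unadjusted p under 0.05 (4.41% of all genes tested), with a median of -1.15. Asns, which makes asparagine, stood at -0.92 on replicate 4, against -0.025, 0.46 and 0.69 on replicates 1 to 3. Its signals were 152902, 160116, 157558 and 60960.4 in the follistatin channel of replicates 1 to 4, against 155614, 116449, 97806 and 115734 in the untreated channel. The untreated signal of replicate 4 lay within the range of the other 3 untreated signals, while the follistatin signal of replicate 4 lay below its other 3. The difference between slides for Asns was -1.30 (SE 0.42, adjusted p = 0.471). The serine pathway runs from Phgdh through Psat1 to Psph. Phgdh stood at -0.77 on replicate 4, against 0.14, 0.48 and 0.76 on replicates 1 to 3. Psat1 stood at -0.42 on replicate 4, against 0.56, 0.73 and 0.91 on replicates 1 to 3. Both were above 0 on slide 1 and below it on slide 2, whereas Psph was below 0 on all 4 arrays and lowest on replicate 4, at -1.15 against -0.63, -0.076 and -0.044. The other probe of Psph was above 0 on replicate 3, at 0.040. Shmt2, the mitochondrial enzyme that passes a carbon unit from serine to folate, had a difference of -1.31 (SE 0.35, adjusted p = 0.471), level with that of Asns within their errors, from ratios of -0.75 on replicate 4, against 0.68, 0.33 and 0.65 on replicates 1 to 3. Mthfd2, the folate enzyme after it, had a difference of -0.50 (SE 0.38, adjusted p = 0.691). Cth, which makes cysteine from cystathionine, stood at -0.72 on replicate 4, against 0.10, 0.36 and 0.80 on replicates 1 to 3, again on opposite sides of 0 by slide.

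Among the transporters Slc7a11, the cystine and glutamate exchanger with 2 copies of the element in its promoter, had the lowest difference between slides of all 35 genes, -2.39 (SE 0.38, adjusted p = 0.461). With normexp and loess it was -1.47, and Ppp1r15a at -1.75 and Nars at -1.54 were then lower. Its ratio was -1.41 on replicate 4, against 0.68, 1.21 and 1.04 on replicates 1 to 3. Its signals, among the dimmest of the 35 genes, were 345, 579, 507 and 144 in the follistatin channel of replicates 1 to 4, against 215, 249.7, 246 and 382 in the untreated channel. On replicate 4 the follistatin signal was the lowest and the untreated signal the highest of their channels. All 4 probes of the gene had a negative difference, from -2.80 to -1.24. Slc7a5, the large neutral amino acid transporter LAT1, stood at -1.18 on replicate 4, against 0.045, 0.39 and 0.25 on replicates 1 to 3, with a difference of -1.41 (SE 0.35, adjusted p = 0.461). Slc3a2, the heavy chain that pairs with both Slc7a5 and Slc7a11, stood at -0.78 on replicate 4, against 0.54, 0.20 and 0.13 on replicates 1 to 3. Slc1a4, a carrier of small neutral amino acids, stood at -0.47 on replicate 4, against 0.37, 0.37 and 0.23 on replicates 1 to 3. At the reported probes all of these were above 0 on slide 1 and below it on slide 2. The other probe of Slc3a2 stood at -0.69 on replicate 4, against 0.11, -1.24 and -1.30 on replicates 1 to 3. The carriers of cationic amino acids, Slc7a1 and Slc7a3, were not above 0 on all of slide 1 at the reported probes. Slc7a1 was lowest on replicate 4, at -0.31, against -0.075, 0.21 and -0.12 on replicates 1 to 3. Its difference between slides was -0.32 (SE 0.35), and that of Slc7a3 was 0.43 (SE 0.79). The ratio of Slc7a3, another dim gene, was 0.56 on replicate 4, against -0.74, -0.10 and 1.22 on replicates 1 to 3, with replicate 4 inside the range of slide 1. Of the 6 transporters 5 had a negative difference, 3 of them at an unadjusted p under 0.05 (4.41% of all genes tested), with a median of -0.93.

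At the reported probes the tRNA synthetases, which load amino acids onto their tRNAs in the cytosol, shared 1 pattern by slide with few exceptions. All 10 were below 0 on replicate 4, from -0.82 to -0.19, against 9, 9 and 10 above 0 on replicates 1, 2 and 3. The 10 differences between slides ran from -1.52 to -0.83, and 7 were at an unadjusted p under 0.05 (4.41% of all genes tested). Eprs, which loads glutamate and proline, stood at -0.82 on replicate 4, against 0.42, 0.86 and 0.83 on replicates 1 to 3, with a difference of -1.52 (SE 0.37, adjusted p = 0.461). Its signals were 15059.8, 16366, 16125 and 9228 in the follistatin channel of replicates 1 to 4, against 11240.2, 9026, 9070.0 and 16284 in the untreated channel. Replicate 4 had both the lowest follistatin and the highest untreated signal of this gene. Nars, for asparagine, stood at -0.55 on replicate 4, against 0.58, 1.18 and 1.14 on replicates 1 to 3, with a difference of -1.52 (SE 0.40, adjusted p = 0.47). Aars, for alanine, stood at -0.78 on replicate 4, against 0.33, 0.23 and 0.41 on replicates 1 to 3. The 3 arrays of slide 1 lay within 0.23 to 0.41 for Aars, and replicate 4 lay apart from them. Sars, for serine, was as tight on slide 1, with -0.66 on replicate 4, against 0.12, 0.18 and 0.21 on replicates 1 to 3. Mars, for methionine, had a difference of -1.08, Gars, for glycine, one of -0.98, Tars, for threonine, -0.92, Iars, for isoleucine, -0.89, Cars, for cysteine, -0.87, and Wars, for tryptophan, -0.86. Tars on replicate 1 and Wars on replicate 2 were the ratios of slide 1 below 0 at the reported probes, at -0.052 and -0.16. Some other probes of Aars, Eprs and Iars were below 0 on all of replicates 1 to 3. For Aars they stood at -0.33, -0.85 and -2.02 and at -1.17, -0.91 and -1.87. That of Eprs stood at -0.17, -0.81 and -1.04, and that of Iars at -0.36, -0.41 and -1.23. Further probes of these genes, and the other probes of Cars, Mars, Tars and Wars, were above 0 on those arrays. Stc2, a secreted stanniocalcin, had a difference of -0.87 (SE 0.47, adjusted p = 0.592), and Vldlr, a lipoprotein receptor at the cell surface, one of -0.087 (SE 0.58, adjusted p = 0.975), with replicate 1 its lowest ratio at -1.12.

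On slide 1 alone, 12 of the 35 were higher in follistatin cells at an unadjusted p under 0.05 (11.8% of all genes tested) and 2, Chac1 and Ddit4, were lower (14.6%). None passed an adjusted p of 0.05 by limma, against 7 of 17847 genes (0.0392%). Ratios were above 0 on all 3 arrays for 21 of the 35 (22.8%) and below 0 on all 3 for 4 (27.1%). Slc7a11 had the smallest adjusted p, with a mean log2 ratio of 0.98 (SE 0.19, adjusted p = 0.0768). Next were Nars at 0.97 (SE 0.20, adjusted p = 0.0807), Ppp1r15a at 1.18 (SE 0.26, adjusted p = 0.0867) and Psat1 at 0.73 (SE 0.17, adjusted p = 0.0927). These errors count replicates 2 and 3 as independent. This comparison within 1 slide was chosen after its values were seen.

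The channels were then read apart, each scaled to the median of all genes tested on its array, so that a value compares arrays within a channel. Replicate 4 lay below each of replicates 1 to 3 in the follistatin channel for 32 of the 35 (38.4% of all genes tested) and above each of them for 1, Ddit4 (21.7%). In the untreated channel replicate 4 lay below each of the others for 6 (42.5%) and above each for 14 (27.4%). The median of replicate 4 minus the mean of replicates 1 to 3 was -0.87 for the 35 in the follistatin channel, against -0.10 over all genes tested. In the untreated channel it was 0.10, against -0.11 over all genes tested. The median of the 35 was thus below that of all genes tested in the follistatin channel and above it in the untreated channel. For Asns these differences were -1.46 in the follistatin channel and -0.11 in the untreated channel, and for Slc7a11 -1.79 in the follistatin channel and 0.64 in the untreated channel. For Ddit4 they were 0.66 in the follistatin channel and -0.51 in the untreated channel. Nupr1 was lower in both, with -0.40 in the follistatin channel and -0.94 in the untreated channel. The part of the dye, of the slide and of the RNA in these differences was not tested.

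**Figure D3:**
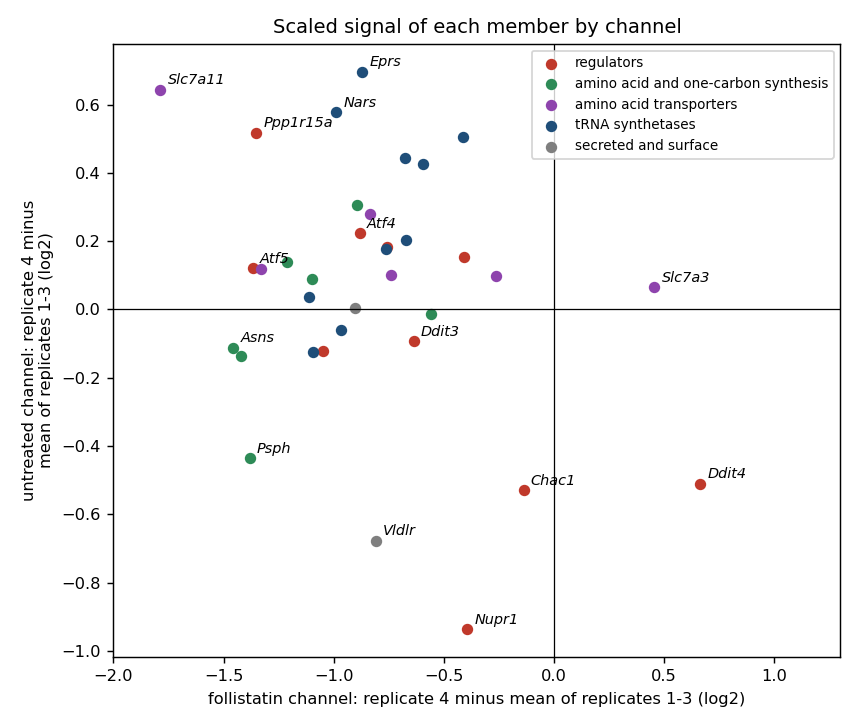
Scaled log2 signal on replicate 4 minus the mean of replicates 1 to 3, in the follistatin channel (horizontal axis) and the untreated channel (vertical axis), for the 35 genes coloured by role. All of the 35 but Ddit4 and Slc7a3 lie left of 0 on the follistatin axis, and 23 of the 35 lie above 0 on the untreated axis. Over all genes tested 41.0% were above 0 in the follistatin channel and 41.8% in the untreated channel.

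Other probes of the same genes were read in the same way. Of the 61 probes 54 had a ratio below 0 on replicate 4, and 50 had a negative difference between slides. In 16 genes with more than 1 probe all differences were of 1 sign in 10. No share of all 27016 probes tested, or of all genes with more than 1 probe, is given beside these counts. The 5 probes of Aars ran from -2.54 to 1.12 and the 4 of Eprs from -1.52 to 0.27. Probes also disagreed in sign for Sesn2, Slc3a2, Slc7a1 and Vldlr. The 2 probes of Trib3 stood at -2.18 and -0.88, and those of Wars at -2.69 and -0.86.

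**Figure D4:**
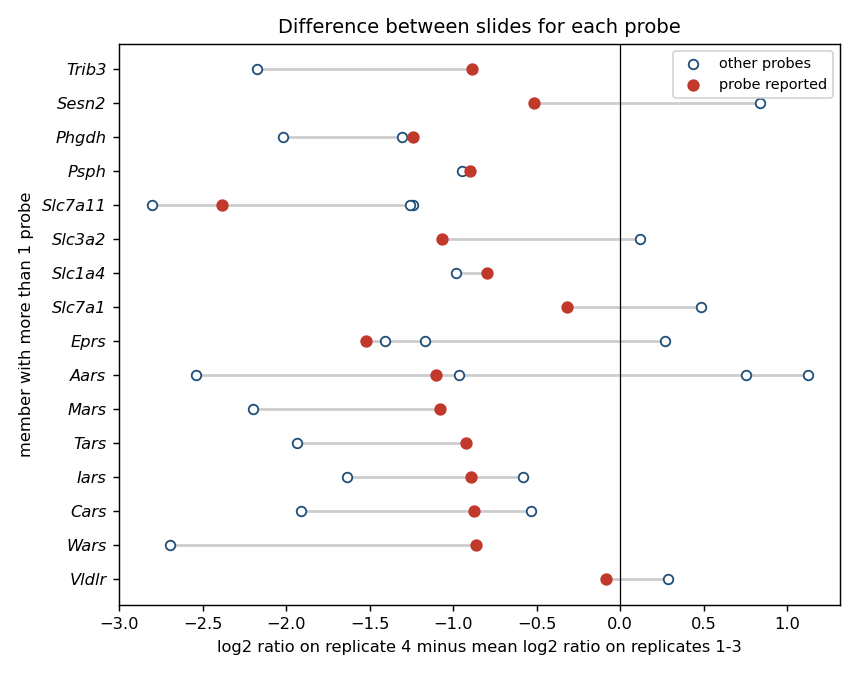
Difference between slides (horizontal axis, log2 ratio on replicate 4 minus the mean on replicates 1 to 3) for every probe of the 16 genes with more than 1 probe (vertical axis), the reported probe filled. Probes of 10 genes lie on 1 side of 0, while those of Aars run from -2.54 to 1.12.

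Neighbouring gene lists were read in the same 2 fits, and 0 genes of any list passed an adjusted p of 0.05 for follistatin over untreated. The shares to read them against are 4.41% of all genes tested lower and 5.40% higher on replicate 4 at an unadjusted p under 0.05. Of 9 eIF2alpha kinases and regulators, all 9 had a negative difference between slides, 1 at an unadjusted p under 0.05 (median -0.48). Eif2ak1, the haem-regulated kinase, was at -1.24 (SE 0.34, adjusted p = 0.471), Eif2s1, eIF2alpha itself, at -0.55, and Ppp1r15b, the constitutive partner of the eIF2alpha phosphatase, at -0.48. Of 19 other partners and reported targets of Atf4, 18 had a negative difference, 6 at an unadjusted p under 0.05 (median -0.73). Pycr1 and Aldh18a1, enzymes of proline synthesis, were at -1.75 (SE 0.43, adjusted p = 0.461) and -1.66 (SE 0.45, adjusted p = 0.471), and the transaminase Got1 at -1.16 (SE 0.33, adjusted p = 0.471). Of 13 cytosolic synthetases and scaffold proteins outside the 35 genes, 12 had a negative difference, 3 at an unadjusted p under 0.05 and 1 higher at that p (median -0.57). Farsb was at -1.94 (SE 0.51, adjusted p = 0.466), Yars at -1.40 and Kars at -1.20.

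The chaperone and folding genes of the Atf6 and Xbp1 arms of the unfolded protein response, which act beside the Perk arm that leads to Atf4, had the lowest median of these lists. Of 19, 17 had a negative difference between slides, 11 at an unadjusted p under 0.05 (median -1.57). Hyou1, a chaperone of the endoplasmic reticulum, stood at -2.53 on replicate 4, against 0.33, 0.44 and 0.76 on replicates 1 to 3, with a difference of -3.05 (SE 0.36, adjusted p = 0.461). Hspa5, which encodes the chaperone BiP, stood at -1.76 on replicate 4, against 0.43, 0.77 and 0.69 on replicates 1 to 3, and Pdia4, a disulfide isomerase, at -1.77 on replicate 4, against 0.77, 0.67 and 0.69 on replicates 1 to 3. In these 3 genes slide 1 was above 0 on every array and replicate 4 was below it. Of 17 mitochondrial synthetases, which serve another compartment, 8 had a negative difference and 0 an unadjusted p under 0.05 (median 0.054). Fars2 was at -0.87, Wars2 at -1.18 and Pars2 at -0.64. Of 12 hypoxia-responsive genes 6 had a negative difference, 1 at an unadjusted p under 0.05, and 2 were higher at that p (median -0.062). Ndrg1 was at -1.33, Ankrd37 at 1.11 and the kinase Pdk1 at 0.97. Of 9 p53-responsive genes 4 had a negative difference, 1 at an unadjusted p under 0.05 (median 0.15), with Ccng1 at -1.16, Btg2 at -0.79 and Perp at 0.56. Differences between the lists were not tested.

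**Figure D5:**
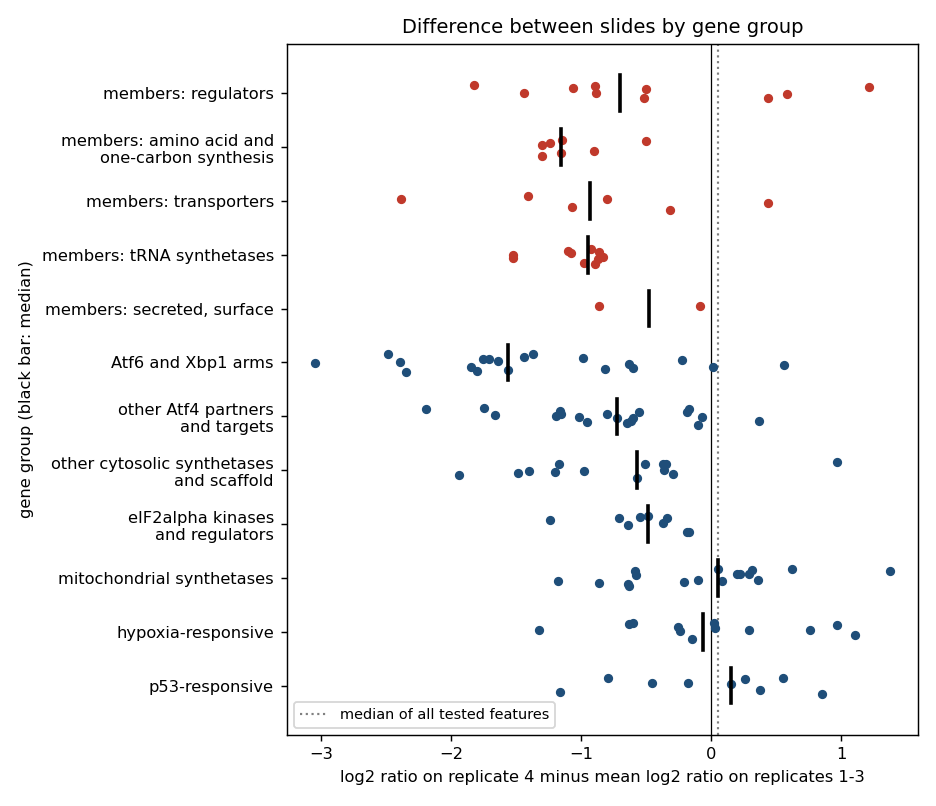
Difference between slides (horizontal axis, log2 ratio on replicate 4 minus the mean on replicates 1 to 3) of single genes (points) by group (vertical axis), with the 35 genes by role in red, neighbouring lists in blue, medians as black bars and the median of all genes tested dotted. Medians run from -1.57 for the Atf6 and Xbp1 arms to 0.15 for the p53-responsive genes.

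The order of the 35 genes was compared between arrays. Across the 35, as a description over genes that share arrays, r was 0.80 between replicates 2 and 3, 0.45 between replicates 1 and 2, and 0.36 between replicates 1 and 3. Replicate 4 correlated at -0.021 with replicate 1, at -0.51 with replicate 2 and at -0.24 with replicate 3. Rank correlations for the same pairs were 0.088, -0.25 and -0.12. Slc7a11, with a mean of 0.98 on slide 1, was the lowest on replicate 4, and Ddit4, the lowest on replicate 2, was the second highest on replicate 4.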

How the data were processed

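Gene expression of C2C12 cells was measured on 4 two-colour Agilent arrays, 1 per replicate. The authors measured spot intensity with Agilent Feature Extraction. The submitters' processing notes give version 10.7.3.1, but the header of replicate 4 names 10.10.1.1. The deposited processed intensity values had their background subtracted and dyes normalized array by array, per the file headers. The authors' deposited log10 ratio (Cy5 over Cy3) served only to check its direction. The authors' deposited table of log2 values equalled the log2 of processed Cy3 over processed Cy5 signal (slope 1, r = 1 on each array), with column medians of -0.16, 0.17, 0.13 and 0.11 for replicates 1 to 4 and no further centring.

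Here the same log2 ratio, follistatin over untreated, was computed from the processed signals. Control spots were left out, which left 43379 of 45018 spots for 41174 probes, and a further 85 to 142 spots on each array were left out as marked outliers. No spot was saturated. Repeated spots were averaged, and the 27016 probes that were well above background on 3 or more arrays for 1 dye were tested. The brightest probe stood for a gene name, giving 17847 genes and unnamed transcripts. Gene names and mm9 positions are those of the scanner files. Ratios were fitted with limma 3.58.1 in R 4.3.3 (lmFit, eBayes), against 0 over all 4 arrays and as replicate 4 minus replicates 1 to 3, with Benjamini-Hochberg adjustment over all features and a threshold of 0.05. Every p given is limma's. The fits were tested on simulated data. That of follistatin over untreated called few changes of 1 log2 unit and nearly all of 2 units, and that between slides called none of either size. The alternatives were normexp background correction (offset 50) with loess (span 0.3), median centring, the mean over probes, no filter, each replicate left out, replicates 2 and 3 averaged, the slide as a block, the study's unpaired test, and each probe as its own feature. The last was chosen after seeing the data, as were the comparison within slide 1 and the scaled channels. The 35 genes and the neighbouring lists were chosen with earlier results of these data known, so no p is given over a list. The text names all 35 genes and, in each list, the genes of smallest p in the difference between slides, none of which passed. Promoter windows came from RefSeq (GRCm38.p6): 34 of the 35 genes matched by symbol and 1 by synonym.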

Additional observations from a re-analysis of the deposited data

Results flagged for a closer look

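In 3 of the 35 genes (8.57%) an array lay farther from the other 3 than Dixon's criterion for 4 values allows, against 5.93% of all genes tested. Chance passes about 5 in 100 groups of 4. In these 3 genes the array was replicate 4, and the share of all genes tested for replicate 4 alone is not given. The log2 ratio of Slc1a4, the neutral amino acid carrier, was -0.47 on replicate 4, against 0.23 to 0.37 on replicates 1 to 3. That of Aars, the alanyl-tRNA synthetase, was -0.78 on replicate 4, against 0.23 to 0.41 on the others. That of Sars, the seryl-tRNA synthetase, was -0.66 on replicate 4, against 0.12 to 0.21 on the others. At the reported probes all 3 were above 0 on each array of slide 1, while some other probes of Aars were below 0 there. The part of the slide was not tested.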

How the results depend on the processing

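None of the 35 genes passed an adjusted p of 0.05 for follistatin over untreated under any alternative run, nor did any of their 61 probes as features of their own. Over all genes tested, 2 passed for follistatin over untreated, against 0 with normexp and loess, 7 with the mean over probes, 0 with the slide as a block, 1 with the methods' test (1 also with its fold minimum), and 0 to 7 with 1 replicate left out. The 7 were without replicate 4, and the 0 without replicate 1 and without replicate 2. The difference between slides gave 0 calls throughout, with 827 to 4626 genes at an unadjusted p under 0.05 when 1 of replicates 1 to 3 was left out, against 1751 with all arrays. Means of follistatin over untreated of these genes changed sign with the arrays used or with the slide as a block. With all arrays 23 of the 35 were above 0, against 8606 of all 17847 genes tested. Without replicate 4 it was 28 of the 35 (median 0.32), and with the slide as a block 12 (median -0.15). The counts over all genes tested are not given for those alternatives.

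The log2 ratios that changed sign were, with normexp and loess, Asns -0.10, Aars -0.013, Wars 0.0013, Stc2 -0.0086 and Cth -0.020. With the mean over probes they were Slc3a2 -0.38, Aars -0.36 and Wars 0.41, and for the difference between slides Sesn2 0.16, Slc7a1 0.081 and Vldlr 0.099. With replicates 2 and 3 averaged they were Asns -0.13, Phgdh -0.0033, Slc3a2 -0.023, Aars -0.041, Nupr1 0.049, Stc2 -0.11 and Cth -0.014. With the slide as a block they were Asns -0.28, Phgdh -0.16, Shmt2 -0.097, Slc7a11 -0.21, Slc3a2 -0.24, Slc1a4 -0.076, Aars -0.23, Gars -0.19, Cars -0.15, Eprs -0.058, Nupr1 0.11, Stc2 -0.17 and Cth -0.15. With 1 replicate left out, ratios ranged over 0 for Atf5 (-0.43 to 0.20), Asns (-0.16 to 0.37), Phgdh (-0.050 to 0.46), Slc7a1 (-0.17 to 0.0066), Slc7a3 (-0.092 to 0.56), Slc7a5 (-0.30 to 0.23), Slc3a2 (-0.15 to 0.29), Aars (-0.072 to 0.33), Gars (-0.099 to 0.30), Sars (-0.12 to 0.17), Wars (-0.20 to 0.18), Cars (-0.037 to 0.28), Nupr1 (-0.19 to 0.14), Stc2 (-0.19 to 0.26) and Cth (-0.086 to 0.42), and the difference between slides for Vldlr (-0.48 to 0.12). The cause of these changes of sign was not tested. The median over the 35 genes on each array moved by less than the spread between replicates under every alternative run for it. No paired analysis was possible because each ratio already pairs the channels of 1 array and the ratios form 1 group. The number of arrays limits the precision, with 1 array on slide 2.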

Other observations

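Other genes were chosen after their values were seen, some that differed widely between arrays and others of 1 sign on all 4. Lars2, the mitochondrial leucyl-tRNA synthetase, had a log2 ratio of -0.53 on replicate 4, against 3.35, -4.84 and -4.22 on replicates 1, 2 and 3. Aldh1l2, a mitochondrial folate enzyme, stood at -0.78 on replicate 4, against 0.54, 1.41 and 2.28 on replicates 1 to 3. Cebpb, a C/EBP partner of Atf4, was below 0 on all 4 arrays, at -0.97 on replicate 4, against -0.77, -0.83 and -0.76 on replicates 1 to 3 (mean -0.83, adjusted p = 0.0863 by limma). Slc38a2, a carrier of neutral amino acids, and Nfe2l2, a factor of the oxidative stress response, were above 0 on all 4 arrays, with means of 0.83 (adjusted p = 0.107) and 0.75 (adjusted p = 0.121) by limma. Dnajc3, an inhibitor of eIF2alpha kinases, was below 0 on all 4, with a mean of -1.14 (adjusted p = 0.0863 by limma). The 2 genes that passed for follistatin over untreated were Ces3b, a carboxylesterase, at -3.23, and the olfactory receptor gene Olfr1299, at -2.92 (adjusted p = 0.00576 for both by limma). Both had ratios below 0 on all 4 arrays. Neither passed with normexp and loess or with the slide as a block, and the part of the dye in their ratios was not tested.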
